A study of Mus musculus with 10 samples.

Results

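The 2 libraries of mouse embryonic stem cells that lack the enhancer E2 (E2-KO) were set against the 4 libraries that lack E1 or E3 (E1-KO and E3-KO, 2 libraries each). The 6 libraries were taken by their genotype label from the 10 of the series; the other 4, of unedited cells (WT) and of cells lacking both E1 and E3 (E1&E3-dKO), entered no test and are given only as values beside a result. All 6 are of the line ES-E14TG2a, grown without feeder cells on gelatin with LIF and the inhibitors CHIR99021 and PD0325901, which keep the cells pluripotent. The labels state neither where the enhancers lie, nor what was removed, nor whether the 2 libraries of a genotype come from separate clones or cultures, so the p-values speak only of the spread from library to library. The titles of both E2-KO libraries, of E3-KO replicate 2 and of WT replicate 1 begin with w326, whose meaning is not given.

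Enhancers are stretches of DNA that raise the transcription of genes, often at a distance, and in embryonic stem cells many of them keep pluripotency genes active. Hi-C joins DNA ends that lie close together in the nucleus and sequences them as pairs, so that frequent pairs mark loops and domains. Topologically associating domains (TADs) are stretches that contact themselves more than their flanks, and their ends, the boundaries, are often occupied by CTCF and cohesin. Exo-Hi-C adds an exonuclease digestion that removes linear DNA left after ligation. Of the 2 enzyme mixtures named in the labels, LRC and LIC, the one used for a given library is not stated.

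For each library the authors deposited a list of interactions, which are pairs of 10 kb bins of mm9 on the same chromosome with a count of reads, and a list of TADs with a score. The E2-KO libraries listed 3497 and 1050 interactions and 7962 and 4215 TADs. The other 4 listed 1066 and 518 interactions (E1-KO replicates 1 and 2) and 827 and 1467 (E3-KO), with 2715, 3648, 3300 and 4859 TADs. Since long lists share more by length alone, the comparisons below used an equal length unless stated otherwise: the 518 interactions with the smallest p and the 2715 TADs with the highest score in each library. The 518 are the whole list of E1-KO replicate 2, so the cuts are unlike. The weakest deposited Poisson p kept was 9.66e-17 and 2.85e-12 in E2-KO and 2.07e-10 to 3.33e-09 in the others. The total number of reads is not in the files, so a relative depth was recovered from the deposited p-values, as the contacts expected in a pair of average bins 1 Mb apart. It was 0.0147 and 0.0835 in the E2-KO libraries. E1-KO had 0.246 and 0.114, and E3-KO 0.171 and 0.0721. By this measure E2-KO replicate 1 was 16.7 times below the deepest of the 6, and E2-KO replicate 2 lay between E1-KO replicate 2 and E3-KO replicate 2. Whether the measure follows the total number of reads was not tested.

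The strongest interactions of both E2-KO libraries had more in common, and were more crowded together, than those of E1-KO and E3-KO, by measures given below without a test that could pass, while the number, length and score of TADs overlapped between the sides. Both E2-KO libraries shared 46 interactions, 2.8% of the 1645 distinct ones, that no E1-KO or E3-KO list of equal length held. The reverse kind, which must be held by all 4 other lists, numbered 1 (0.0608%). The demands differ, so these counts are not on the same footing. Of the 8 single values compared (numbers of interactions and TADs, distance, share under 2 Mb, reads, observed over expected contacts, TAD length and TAD score), 0 separated the sides without overlap. With 2 libraries against 4 there are 15 choices, so the smallest exact p is 0.0667 and no exact test of a single value or count can reach 0.05; after Benjamini-Hochberg adjustment over the 14 tests the smallest value was 0.373.

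The number of interactions averaged higher in E2-KO by 1.08 on the log2 scale, with a mean log2 number of 10.9 ± 1.23 (SD, n = 2) against 9.82 ± 0.63 (SD, n = 4; exact permutation p = 0.267, two-sided). The difference rested on replicate 1: its 3497 interactions exceeded every other list, whereas the 1050 of replicate 2 lay below both E1-KO replicate 1 and E3-KO replicate 2. Without E2-KO replicate 1 the difference was 0.21, and without E2-KO replicate 2 it was 1.95. In E2-KO replicate 1, 1901 of the interactions spanned 20 Mb or more, and the median interaction of its full list rested on 3 reads.

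Among the strongest 518 interactions, distances were short in both E2-KO libraries, with medians of 0.655 and 0.82 Mb. E1-KO replicate 1 had a still shorter median of 0.215 Mb, and the other 3 libraries had 3.91, 7.12 and 3.47 Mb. E2-KO thus resembled E1-KO replicate 1 and differed from the remaining libraries. Interactions under 2 Mb made up 74.3% and 64.3% of the lists in E2-KO, 75.3% and 40.0% in E1-KO and 35.9% and 40.9% in E3-KO. Interactions of 20 Mb and more made up 5.02% and 8.88% in E2-KO, 6.76% in E1-KO replicate 1 and 33.4% to 36.7% in the others. The share under 2 Mb was 21.3 percentage points higher in E2-KO (69.3 ± 7.1 against 48.0 ± 18.3; exact permutation p = 0.4), and the log10 median distance was lower, with a difference of -0.46 (exact permutation p = 0.4). Both directions turned in the full lists, in which E2-KO replicate 1 had a median of 30.71 Mb and replicate 2 of 1.99 Mb: the differences there were -1.71 points and 0.22.

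**Figure D1:**
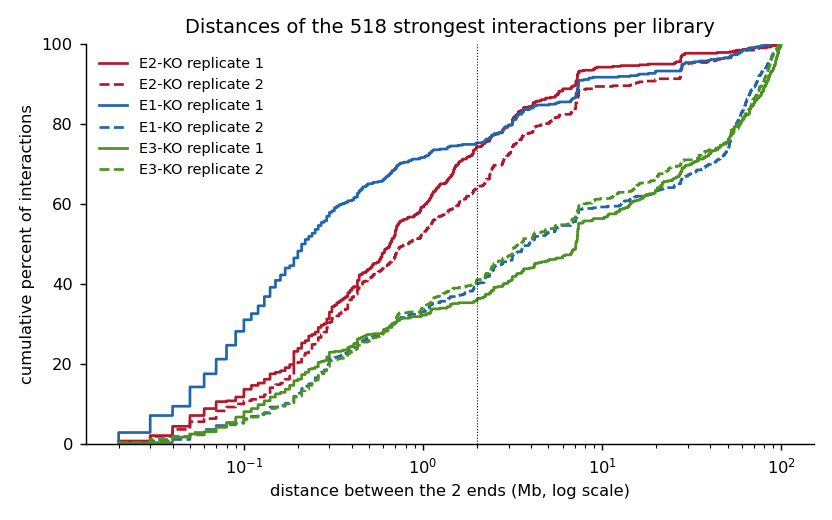
Cumulative percent of the 518 strongest interactions of each library (vertical axis) by the distance between their ends (Mb, log axis); solid lines are replicate 1, dashed lines replicate 2, and the dotted line marks 2 Mb. At 2 Mb both E2-KO curves (74.3% and 64.3%) and E1-KO replicate 1 (75.3%) stand above the other 3 libraries (35.9% to 40.9%).

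These interactions rested on a median of 12 and 13 reads in E2-KO, 17 and 6 in E1-KO and 5 and 6 in E3-KO. The log2 difference was 0.75 (exact permutation p = 0.4) and was -0.23 in the full lists, where E2-KO had medians of 3 and 8 reads. The ratio of reads to the contacts expected at that distance had medians of 447 and 168 in E2-KO, 11.6 and 337 in E1-KO and 319 and 578 in E3-KO. E1-KO replicate 1 stood apart on the low side. The log2 difference of the ratio was 0.74 (exact permutation p = 0.867), and it was -0.53 without E1-KO replicate 1.

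The E2-KO interactions were crowded into few places. The 10 fullest pairs of 1 Mb windows held 25.7% and 25.9% of the E2-KO lists, against 17.0% and 17.4% in E1-KO and 15.8% and 18.0% in E3-KO. The lists fell into 183 and 187 window pairs in E2-KO and into 309 to 379 in the others. At this list length neither measure overlapped between the sides. In the full lists both did. There the 10 fullest window pairs held 6.49% and 17.6% in E2-KO against 7.57% to 17.4% in E1-KO and E3-KO. The window pairs of the full lists numbered 2611 and 530 against 335 to 1206. Both measures were chosen after their values were seen and were not tested. Crowding often ran in lines. In E2-KO, 24.9% and 24.7% of interactions had another interaction of the same distance with both ends moved the same way by up to 50 kb, against 11% to 15.1% in E1-KO and E3-KO. A further kind of line, in which both ends moved in opposite directions around the same midpoint, took in 23.0% and 20.8% of E2-KO interactions and 8.11% to 10.4% of the others. With either kind counted the shares were 47.5% and 45.2% in E2-KO against 18.2% to 25.3%. They were 13.5% and 8.15% in the WT libraries. Whether the ends of such pairs carry like sequence was not tested, as no sequence of mm9 was at hand.

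By chromosome, the share of interactions did not overlap between the sides on 12 of 20 chromosomes (60.0%). E2-KO had the higher shares on chromosomes 7, 12, 13 and 14 and the lower ones on 1, 2, 9, 10, 11, 15, 16 and 18. Chromosome 12 held 22.2% and 14.5% of the E2-KO lists, against 9.85% and 11.8% in E1-KO and 9.46% and 11.4% in E3-KO. Chromosome 7 held 15.8% and 12.0%, against 7.92% to 11.2%. Chromosome 16 gave 0 interactions in both E2-KO lists and 7 to 13 in the others, and chromosome 11 gave 0 and 1 against 5 to 38. A share of 0 of 518 interactions says only that none ranked among the strongest: the full E2-KO lists held 57 and 14 interactions on chromosome 16 and 93 and 12 on chromosome 11. In the full lists the shares did not overlap on 5 chromosomes, higher in E2-KO on chromosome 14 and lower on 10, 11, 16 and 19.

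The 46 interactions held by both E2-KO lists and by none of the other 4 were 2.8% of the 1645 distinct interactions in the 6 lists (exact permutation p = 0.0667, one-sided, the smallest p the 15 choices can give; adjusted p = 0.373). Only 1 interaction, 0.0608%, was held by all 4 E1-KO and E3-KO lists and by neither E2-KO list (exact permutation p = 0.867). Holding by 4 libraries is the stricter demand, so the counts are not on the same footing. In full lists the E2-KO count was 140 of 6236 (2.25%). Leaving out E2-KO replicate 1 or 2 gave 129 and 190, and leaving out E3-KO replicate 2 gave 75. Leaving out E1-KO replicate 2, the shortest list, gave 62 with 518 interactions per library and 103 with lists at the length the others then share. Against E3-KO replicate 2 alone, the w326-titled library of the other side, 84 interactions were of E2-KO only at 518 per library.

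The 46 interactions were mostly local. Their median distance was 0.395 Mb, 38 lay under 2 Mb, 7 between 2 and 20 Mb and 1 beyond 20 Mb. They fell on 13 chromosomes, with 9 each on chromosomes 7 and 13 and 7 on chromosome 12. Of the 46, 36 were in none of the 4 full E1-KO and E3-KO lists either, 3 were in a WT list and 7 in an E1&E3-dKO list, and 38 were in neither genotype. A pair of E1-KO or E3-KO often lay close by: within 50 kb at both ends for 22 of them and within 100 kb for 27.

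Recovered depth enters the number of reads a pair needs for listing. The E2-KO interactions had medians of 12 and 14 reads. In average bins at the same distance, the weakest p of each list asks for a median of 12 and 9 reads in E1-KO and 10 and 8 in E3-KO, since a deeper library expects more contacts. For 23 of the 46 the lower of both E2-KO read counts would have been enough in all 4 other libraries, and for 1 it would have been enough in none of them. The remaining 22 would have been listed in some and not in others. The role of depth in the count of 46 was otherwise not tested.

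**Figure D2:**
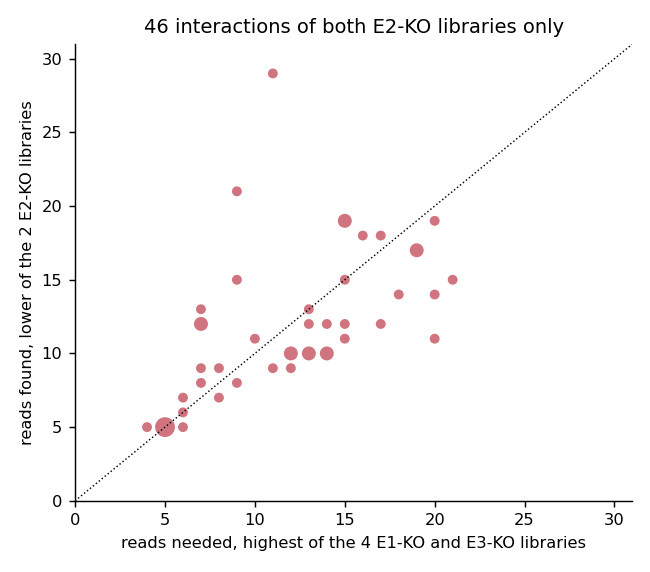
Reads of the 46 interactions of both E2-KO libraries only: the lower of both E2-KO counts (vertical axis, reads) against the highest count needed for listing among the 4 E1-KO and E3-KO libraries (horizontal axis, reads); point area grows with the number of interactions at a position, and the dotted line marks equality. On or above the line lie 23 interactions, for which the E2-KO reads would have sufficed in every library.

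The interaction with the smallest p joined chr8:22.365 Mb with 22.805 Mb (bin centres). It had 31 and 29 reads in E2-KO, where 8 to 11 reads would have listed it in E1-KO and E3-KO, and it was in no WT or E1&E3-dKO list. The window from 22 to 23 Mb held 5 and 6 interactions in E2-KO, 2 each in E1-KO replicate 2 and E3-KO replicate 2, and 0 in E1-KO replicate 1, E3-KO replicate 1 and the full lists of both WT libraries. The window was named for a pair of E2-KO only, so fuller E2-KO lists there follow in part from that choice.

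On chromosome 13 the E2-KO lists had a cluster near 66 Mb. The window from 66 to 67 Mb, named for its number of interactions of E2-KO only, held 14 and 9 interactions in E2-KO. It held 3 and 7 in E1-KO and 5 and 7 in E3-KO. A pair between 66.035 and 66.925 Mb had 21 and 23 reads in E2-KO and needed 7 to 9 reads elsewhere. A second pair, 66.395 with 66.545 Mb, had 19 and 23 reads and needed 10 to 15. Neither was in any list of the other 8 libraries. Another position ran the other way: the pair 66.515 with 66.815 Mb had 32 reads in E1-KO replicate 2, 33 and 24 in E3-KO, 16 and 14 in WT and 15 and 29 in E1&E3-dKO. E2-KO replicate 2 and E1-KO replicate 1 listed no pair within 1 bin of it, and E2-KO replicate 1 listed the pair of 66.515 with 66.805 Mb, with 7 reads. This contact was thus listed in all genotypes, with the fewest reads in E2-KO replicate 1.

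On chromosome 12 the pairs 19.955 with 20.925 Mb (15 and 17 reads) and 20.375 with 21.885 Mb (12 and 15 reads) were of E2-KO only, and 6 to 9 reads would have listed them elsewhere. For the first, the nearest E1-KO or E3-KO pair lay 65 bins away, and for the second 3 bins away. The window pair from 19 to 20 Mb held 11 and 4 interactions in E2-KO and 1 to 3 in the others. On chromosome 7 the pair 32.485 with 34.145 Mb had 13 reads in each E2-KO library, and the nearest E1-KO or E3-KO pair lay 77 bins away. No library outside E2-KO listed an interaction with both ends inside that stretch widened by 150 kb. Pairs with only 1 end there were not counted, and WT replicate 2 listed 1 interaction between the windows at 32 and 34 Mb. The window from 24 to 25 Mb on the same chromosome held 11 and 9 interactions in E2-KO, 2 in each of 3 other libraries, 5 in E3-KO replicate 2 and 0 in WT. On chromosome 6 the window from 3 to 4 Mb held 3 and 2 in E2-KO and 0 in E1-KO, E3-KO and WT. These windows were named for their number of interactions of E2-KO only, so fuller E2-KO lists there follow in part from that choice.

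On chromosomes 10 and 14 the E2-KO pairs lay in lines that the other lists also held in part. On chromosome 10 the pair 21.945 with 22.135 Mb (21 and 19 reads) was of E2-KO only. It was 1 of a row of pairs 190 kb apart, of which the other lists held several. For 21.895 with 22.085 Mb, taking the best match within 1 bin, E2-KO had 52 and 58 reads, E1-KO 50 and 49 and E3-KO 37 and 43. The reads of both E2-KO libraries were the highest there, and those of E1-KO came close. On chromosome 14 the pair 53.425 with 54.115 Mb had 11 and 14 reads in E2-KO, and the nearest pair lay 2 bins away in E3-KO replicate 2 and 3 bins away in the other 3 libraries.

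The only interaction of all 4 E1-KO and E3-KO lists that E2-KO lacked joined chr4:145.045 Mb with 146.015 Mb. It had 22 and 18 reads in E1-KO and 24 and 17 in E3-KO, and both WT libraries (12 and 10 reads) and both E1&E3-dKO libraries (16 and 15 reads) listed it. E2-KO was the sole genotype without it, although the window pair from 145 to 146 Mb held more interactions in E2-KO (14 and 16) than in the others (5 to 11). That window pair was itself named for its interactions of E2-KO only.

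Interactions of all 6 full lists allowed a test of their strength. There were 66 such interactions, with a median of 17.5 and 22 reads in E2-KO, 14 and 13 in E1-KO and 11.5 and 12 in E3-KO. Median reads at these sites were thus highest in E2-KO. By recovered depth E2-KO replicate 1 was the lowest of the 6 libraries, and replicate 2 was below 3 of the other 4. How reads at these sites relate to depth was not tested. The medians of reads over expected were 738 and 229 in E2-KO against 63.4 to 178 in the others. After each library was centred on its median, 1 of 66 (1.52%) passed in limma: the pair chrX:4.275 with 4.665 Mb was lower in E2-KO by a log2 difference of -1.44 ± 0.27 (SE; limma adjusted p = 0.0444). Its reads were 7 and 11 in E2-KO and 7 to 9 in the others, so the counts themselves overlapped. Of the centred values, 16 of 66 (24.2%) did not overlap between the sides, 5 higher and 11 lower in E2-KO. Without centring, which moves the median difference to 1.70, limma called 17, all higher in E2-KO; with reads in place of the ratio, an alternative added after the data were seen, it called 0 (11 at an unadjusted p under 0.05). The call on chromosome X was also lost when any 1 of the 4 E1-KO and E3-KO libraries was left out.

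TADs were more numerous in E2-KO on average, with a log2 difference of 0.71 (exact permutation p = 0.2), and those of equal lists were shorter. Their median length was 90 and 180 kb in E2-KO, 260 and 210 kb in E1-KO and 240 and 150 kb in E3-KO. The log2 difference of length was -0.73 (6.99 ± 0.71, SD, n = 2, against 7.72 ± 0.35, SD, n = 4; exact permutation p = 0.2). E2-KO replicate 2 lay within the range of the other genotypes, and without replicate 1 the difference was -0.23. TADs of 90 kb and shorter made up 57.9% and 24.6% in E2-KO and 10.3% to 28.9% in the others, and TADs of 1 Mb and longer numbered 11 and 121 against 52 to 241. Only E2-KO replicate 1 stood outside the other libraries on either count.

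The order of the 6 libraries by number of TADs was exactly the reverse of their order by recovered depth. From the deepest, E1-KO replicate 1, through E3-KO replicate 1, E1-KO replicate 2, E2-KO replicate 2 and E3-KO replicate 2 to E2-KO replicate 1, the number went from 2715 to 3300, 3648, 4215, 4859 and 7962. Median length at equal list size went in the same order from 260 to 240, 210, 180, 150 and 90 kb. E2-KO replicate 2, with 4215 TADs of a median 180 kb, took the place its depth has in that order. The WT libraries, at depths of 0.191 and 0.207, listed 2878 and 3548 TADs. WT replicate 2 thus left the order, as E3-KO replicate 1, at a lower depth of 0.171, listed 3300. The part of depth in the difference between genotypes was not tested.

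**Figure D3:**
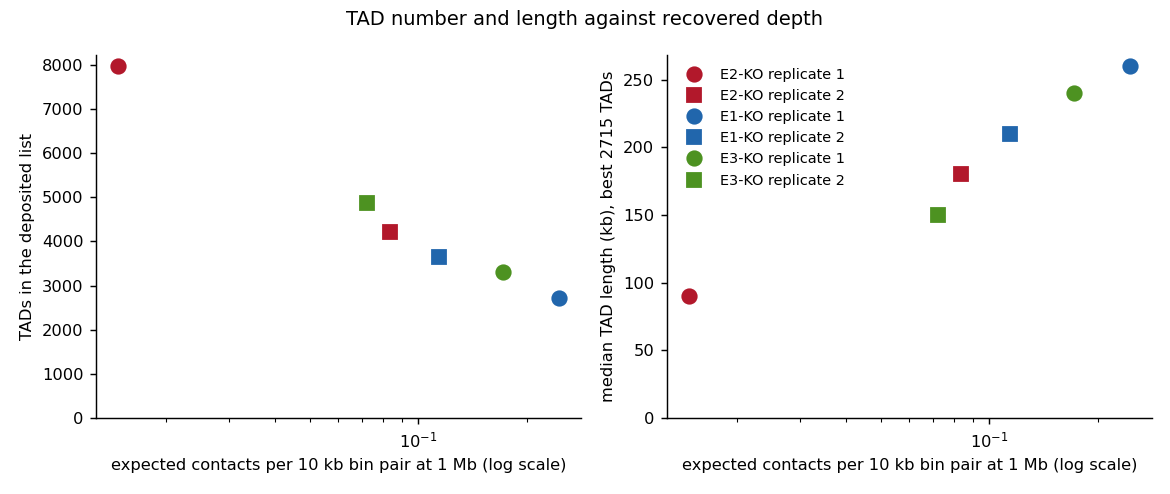
Number of TADs in the deposited list (left) and median length of the 2715 TADs with the highest score in kb (right) against recovered depth, in contacts expected for 10 kb bins 1 Mb apart (log axis), with 1 point per library. TADs fall from 7962 in E2-KO replicate 1 to 2715 in E1-KO replicate 1 as depth rises, and E2-KO replicate 2 lies between E1-KO replicate 2 and E3-KO replicate 2.

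The median score at equal length was 2.47 and 1.78 in E2-KO, 1.69 and 1.75 in E1-KO and 1.74 and 1.80 in E3-KO, with a log2 difference of 0.27 (exact permutation p = 0.133). Replicate 1 carried it: 410 of its TADs scored 3 or higher against 34 in replicate 2 and 7 to 25 in the others, and without it the difference was 0.03. Over the 289 TADs found in all 6 full lists, limma called 0 (0.0%) at an adjusted p under 0.05, with 39 at an unadjusted p under 0.05. Centred scores did not overlap between the sides for 57 of them (19.7%), 33 higher and 24 lower in E2-KO. Without E2-KO replicate 2 limma called 64, and without any other library 0, so calls appeared only where E2-KO replicate 1 alone stood for its genotype.

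Of the shared TADs the smallest p belonged to chr11:102.15-102.30 Mb, whose score was 1.95 and 1.75 in E2-KO, 2.26 and 2.47 in E1-KO and 2.44 and 2.28 in E3-KO (log2 difference -0.44 ± 0.07, SE; limma adjusted p = 0.106). A TAD at chr13:65.61-65.78 Mb scored 9.56 and 5.94 in E2-KO, above 3.11 and 4.00 in E1-KO and 2.75 and 4.25 in E3-KO (log2 difference 1.02; limma adjusted p = 0.181). A TAD at chr4:133.96-134.06 Mb scored 3.46 and 2.87 against 1.58 to 2.20 (log2 difference 0.63; limma adjusted p = 0.181). The next in order of p, chr13:38.15-38.34 Mb and chr6:72.36-72.49 Mb, had log2 differences of 0.32 and -0.28. Raw scores did not overlap between the sides at the first 4 of these TADs, and none passed the test.

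Sharing between libraries differed in kind for interactions and TADs. The E2-KO libraries had 38.7% of the union of their interactions in common, the highest of the 15 pairs of libraries. E2-KO shared 12.7% to 30.7% with single E1-KO and E3-KO libraries, 2 libraries of another genotype shared 14.4% to 19.3%, and replicates shared 16.2% in E1-KO and 12.9% in E3-KO. The next highest pair was E2-KO replicate 2 with E3-KO replicate 2, both titled w326, at 30.7%. For TADs the E2-KO pair shared 6.29%, while replicates shared 37.5% in E1-KO and 25.9% in E3-KO. E2-KO replicate 1 shared 5.39% to 6.29% of TADs with every other library, and E2-KO replicate 2 shared 22.0% to 31.8% with E1-KO and E3-KO. At equal list length the libraries of E2-KO were thus the most alike in their strongest contacts and among the least alike in their domains. The E2-KO interaction lists were cut at smaller p-values than the others, as given above. The part of that unlike cut in the sharing was not tested.

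**Figure D4:**
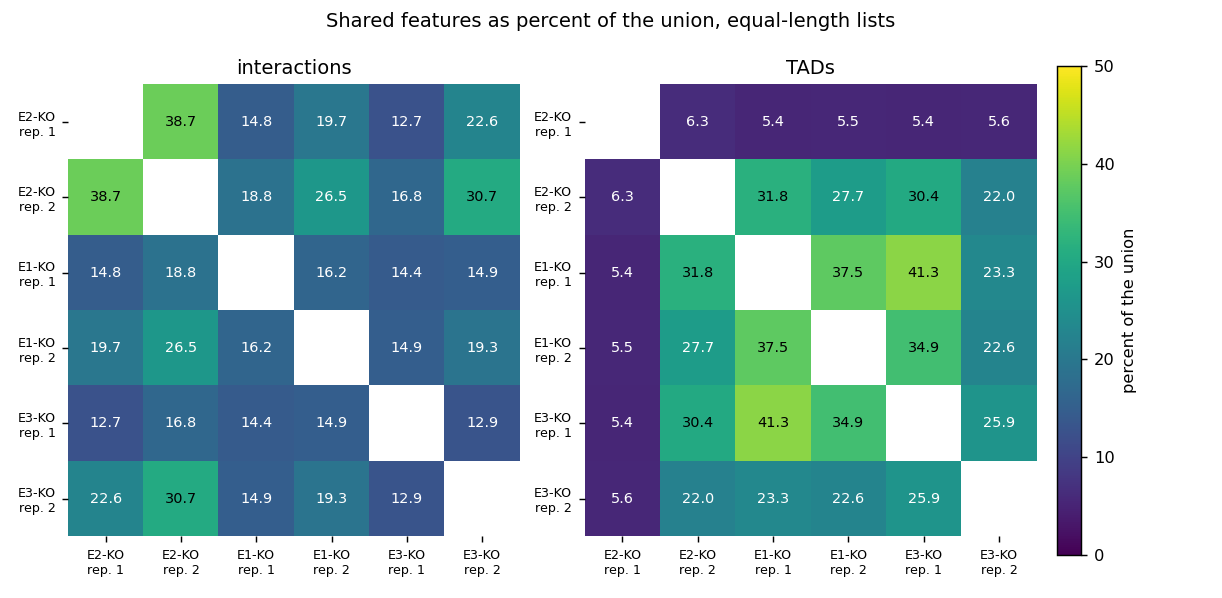
Interactions (left) and TADs (right) shared by each pair of the 6 libraries, as a percent of their union in lists of equal length; colour and number give the percent. The E2-KO pair has the highest value for interactions (38.7%), and E2-KO replicate 1 the lowest row for TADs (5.4% to 6.3%).

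Boundaries, the ends of TADs, were matched within 20 kb. Both E2-KO lists and none of the other 4 held 234 of the 14763 distinct boundaries (1.59%; exact permutation p = 0.133), and all 4 others but neither E2-KO list held 240 (1.63%; exact permutation p = 0.133). In full lists the E2-KO count was 832 of 24838 (3.35%). The 2 kinds were chosen by unlike demands, being held by 2 lists and absent from 4, or held by 4 and absent from 2. Those demands by themselves bear on how often further lists hold them, so the next counts are not a comparison on equal terms. Of the 234 boundaries of E2-KO, 193 were in none of the full E1-KO and E3-KO lists and 178 in neither WT list. Of the 240 boundaries of E1-KO and E3-KO, 175 were in both WT lists, 8 in neither, and 43 were in both full E2-KO lists at lower rank. Of the 46 interactions of E2-KO only, 2 had an end at a boundary of E2-KO only, by either the equal or the full lists. Leaving out E2-KO replicate 2 raised the counts to 3325 and 1157, which then rest on replicate 1 alone.

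Whole TADs, matched by reciprocal overlap of at least 80%, gave 54 of 9397 (0.575%) for E2-KO only (exact permutation p = 0.667) and 112 (1.19%) for E1-KO and E3-KO only (exact permutation p = 0.133). In full lists E2-KO only had 146 of 17176 (0.85%). The E2-KO TADs were small, with a median of 120 kb, and 48 of them were in no full list of the other side. In E1-KO replicates 1 and 2 and E3-KO replicates 1 and 2, 25, 23, 18 and 20 of the 54 lay inside a longer TAD. The TADs of E1-KO and E3-KO only had a median of 310 kb and reached 1730 kb, and 62 of the 112 were in no full E2-KO list. E2-KO replicate 1 had a boundary inside 67 of the 112 and replicate 2 inside 48. Both ends were kept as boundaries in 28 and 39. The TADs of E2-KO only were thus the shorter ones. Each had to be in the equal list of E2-KO replicate 1, whose median length was 90 kb. Those of the other side had to be in lists with medians of 150 to 260 kb. These demands by themselves bear on size, so the lengths are not a comparison on equal terms.

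The clearest E2-KO TADs lay on chromosome 7. One at 24.42-24.57 Mb scored 14.6 in E2-KO replicate 1 and 3.82 in replicate 2. It was absent as such from E1-KO, E3-KO and WT, although E3-KO replicate 2 listed a longer TAD at 24.38-24.61 Mb (score 3.61) and E1&E3-dKO replicate 2 one at 24.42-24.55 Mb (3.32). Another, at 66.90-67.07 Mb, scored 12.1 and 4.67, and E1&E3-dKO replicate 2 alone of the other libraries listed a TAD there, at 66.92-67.06 Mb (4.27). The recovered depths of E3-KO replicate 2 and E1&E3-dKO replicate 2 were 0.0721 and 0.0689, the lowest outside E2-KO. Whether depth has a part in these TADs was not tested.

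Further TADs of E2-KO only lay at chr12:19.22-19.46 Mb (scores 7.13 and 2.83), chr6:130.02-130.30 Mb (6.83 and 3.02) and chr6:3.28-3.40 Mb (6.81 and 2.49). The last had no TAD of any other library within 150 kb; of the other full lists, those of E3-KO replicate 2 and E1&E3-dKO replicate 2 held 1 interaction each there, with 8 reads. At 130 Mb the other lists split the stretch differently: E1-KO replicate 2 and E3-KO replicate 1 had a TAD at 130.13-130.24 Mb, and E1-KO replicate 1 a longer one at 129.98-130.34 Mb. All 4 others, but not E2-KO, listed a TAD that began at 130.32 or 130.33 Mb. E1&E3-dKO replicate 1 listed a TAD at 130.03-130.29 Mb (score 1.75), with ends near those of the E2-KO TAD. The chromosome 12 stretch also held TADs of 260 and 270 kb in the E1&E3-dKO libraries.

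The longest named TAD of E1-KO and E3-KO only was at chr12:83.16-84.26 Mb. Its scores were 2.33 and 2.43 in E1-KO and 2.61 in each E3-KO library, and both WT libraries (2.36 and 2.49) and both E1&E3-dKO libraries (2.36 and 2.26) listed it with ends within 10 kb. The full lists of both E2-KO libraries held no TAD in that stretch. E2-KO replicate 2 kept the neighbour at 82.90-83.10 Mb, which all the others also listed. Recovered depth was 0.0835 in E2-KO replicate 2 and 0.0721 in E3-KO replicate 2, and its part in the listing of this TAD was not tested.

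On chromosome 13 a TAD at 66.50-66.83 Mb scored 2.54 and 3.98 in E1-KO and 3.10 and 3.67 in E3-KO. It was also listed in WT replicate 1 and in both E1&E3-dKO libraries, and not in WT replicate 2 or in E2-KO. Its ends lie 15 kb from the pair 66.515 with 66.815 Mb described above. The next TAD, which begins at 66.96 Mb, was present in E2-KO replicate 2 (score 3.02) and in all 4 others. The domain was thus unlisted in both E2-KO libraries, whereas the pair had a match within 1 bin in E2-KO replicate 1, and E1-KO replicate 1 listed the TAD without the pair.

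On chromosome 10 a TAD was listed on both sides with unlike ends. The E1-KO and E3-KO lists gave 21.86-22.13 or 21.89-22.11 Mb with scores of 3.15, 3.63, 3.24 and 3.76. E2-KO gave 21.86-22.19 Mb (score 9.65) and 21.86-22.15 Mb (4.83). The E2-KO end lay 20 to 80 kb further on. WT listed 21.86-22.14 and 21.87-22.13 Mb. The TAD counts as one of E1-KO and E3-KO only because matching was to 21.89-22.11 Mb. Both E2-KO TADs overlapped the 21.86-22.13 Mb of E1-KO replicate 1 and E3-KO replicate 1 by more than 80%. A TAD of 100 kb at 22.20-22.30 Mb followed in both E2-KO libraries (12.5 and 2.87) and in E3-KO replicate 2 (2.39).

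**Figure D5:**
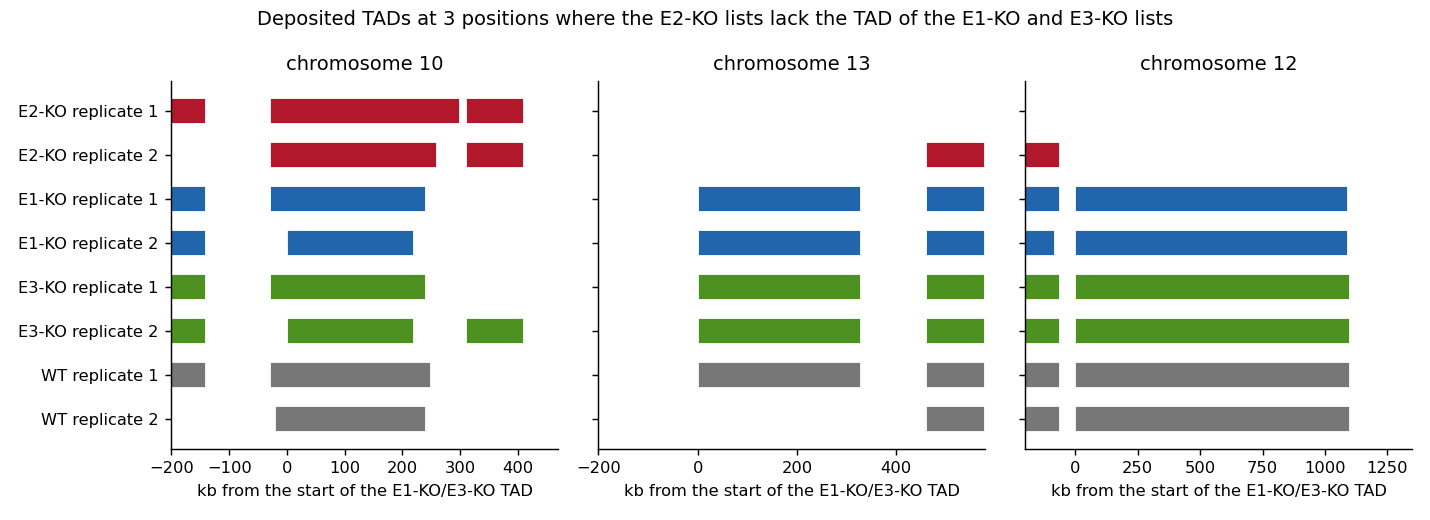
Deposited TADs (bars) of the 6 libraries and of WT at 3 positions, in kb from the start of the TAD of E1-KO and E3-KO; bars are clipped at the edges of each panel. On chromosomes 13 and 12 the TADs of 330 and 1100 kb are present in all E1-KO and E3-KO libraries and in neither E2-KO library, and on chromosome 10 the E2-KO TADs end further on.

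The remaining named TADs of E1-KO and E3-KO only were smaller. At chr1:85.12-85.23 Mb their scores were 2.28, 3.00, 2.46 and 2.21, and WT replicate 1 listed the same TAD. The E2-KO lists had none there, nor had WT replicate 2 or E1&E3-dKO replicate 2. E1&E3-dKO replicate 1 listed only a longer one, at 83.72-85.23 Mb. At chr12:115.19-115.29 Mb the lists of the other side gave TADs of 100 to 120 kb with scores of 2.00, 3.11, 2.19 and 3.12, and E2-KO gave 140 and 130 kb with scores of 10.1 and 4.44. That position is one of a shifted end of 10 kb or so. Both E2-KO TADs overlapped the 115.17-115.29 Mb of E1-KO replicate 2 and of both E3-KO libraries by more than 80%. Only the match to 115.19-115.29 Mb, the TAD of E1-KO replicate 1, failed. Between E2-KO and the single other library with a w326 title, at the same list lengths, the log2 differences were 0.39 for the number of interactions, 0.25 for the number of TADs, 1.06 for reads, -1.08 for reads over expected, -0.24 for TAD length and 0.22 for TAD score. The share under 2 Mb differed by 28.4 points and log10 distance by -0.68. No E2-KO library lacks that title, so title and genotype could be separated only through that 1 library, without a test.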

How the data were processed

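The 20 files hold 1 interaction list and 1 TAD list per library. Per the submitters' processing notes, HiC-Pro 2.10.0 and HOMER were used with the mm9 genome; the tool behind each list is not given in the sources used here. The deposited interaction lists give an unscaled read count, a bias ratio of either bin to an average bin, and a p-value, kept where its adjusted form was 0.01 or lower. The deposited TAD lists give a score of at least 1.5 for TADs of 60 kb to 2 Mb. WT replicate 2 lists each pair in both orientations, and each was used once.

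Expected contacts were solved as the Poisson mean under which the listed count has its listed p-value. Divided by both bias ratios they were equal for all pairs at 1 distance of a library (largest relative SD 5.41e-06), and the value at 1 Mb served as depth. Interactions matched within 1 bin at both ends, boundaries within 20 kb, TADs by 80% reciprocal overlap. Single values and counts were tested by exact permutation over 15 choices of 2 of 6 libraries, with Benjamini-Hochberg adjustment over 14 tests. Features of all 6 libraries were tested with limma 3.58.1 in R 4.3.3 (log2 values centred per library, E2-KO minus the mean of E1-KO and E3-KO), checked on simulated data. Scripts used Python 3.11.15.

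Named regions were the first by mean p or score of each kind (8 interactions and 5 TADs a side, skipping neighbours within 100 kb). Also named were the 5 window pairs of 1 Mb and the 3 chromosomes with most interactions of E2-KO only. Of each limma fit, up to 10 calls, or the 5 with the smallest p, were named. Pair 66.515 with 66.815 Mb on chromosome 13, the pair of 21.895 with 22.085 Mb on chromosome 10, and the crowding and line measures were chosen after their values were seen. The members, lists and tests were chosen with earlier results of these data known. No gene is named because no mm9 annotation was at hand.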

Additional observations from a re-analysis of the deposited data

How the results depend on the processing

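Of 130 alternatives of the 8 single values, 121 kept the direction and 9 reversed it; the exact test could not reach 0.05 under any of them. When libraries are left out, equal lists take the length of the shortest left, so both change; with the length of the main comparison kept, chosen after seeing the data, the results are given as such. In full lists distance changed to 0.22, the share under 2 Mb to -1.71 points and reads to -0.23. The log2 ratio of reads over expected became -0.53 without E1-KO replicate 1, -1.58 with w326 titles only (-1.08 with the length kept), -1.44 against E3-KO alone (-0.65 with the length kept) and -0.059 with the best pairs by reads; leaving out 1 library in turn it ranged from -0.53 to 1.45. Leaving out 1 library in turn gave 48 to 190 interactions, 257 to 3325 boundaries and 61 to 2233 TADs of E2-KO only, and 2 to 15 interactions, 292 to 1157 boundaries and 122 to 576 TADs of E1-KO and E3-KO only; the highest of each came without E2-KO replicate 2. With the length kept, leaving out the shortest list gave 62 interactions of E2-KO only. With w326 titles only these counts were 174, 961 and 200 for E2-KO, and 710, 3306 and 2649 for the other side, then a single library; with the length kept they were 84, 518 and 128, and 239, 2349 and 1651. Full lists gave 140, 832 and 146 for E2-KO only. Boundaries at the same position gave 142 for E1-KO and E3-KO only, 50% overlap gave 84 TADs of E2-KO only, and the best pairs by reads or the same bins gave 2 interactions of E1-KO and E3-KO only. For shared TADs, calls ranged from 0 to 64 when 1 library was left out, and 90% overlap gave 1. For shared interactions they ranged from 0 to 6; they were 0 with the w326 title as a term, on autosomes, against E1-KO or E3-KO alone, quantile normalised, in the same bins or with reads alone, and 17 when not centred. The causes were not tested.

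Replicate numbers did not pair the libraries: deviations of same-numbered E2-KO libraries correlated at -0.26 with E1-KO and -0.35 with E3-KO over shared TADs, and at 0.04 and 0.19 over shared interactions. With the replicate block limma called 0 TADs and 1 interaction, as without it, and for the number of interactions the log2 difference of 1.08 had an exact p of 0.333 (smallest possible 0.111). Recovered depth, the contacts expected 1 Mb apart, differs 16.7 times between libraries and enters the reads a pair needs for listing. Total reads are not known, and an unlisted pair is not shown to be absent.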
